A study of Homo sapiens with 12 samples.

Results

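MALAT1, NEAT1, TUG1, NORAD (older name LINC00657), OIP5-AS1 and MIAT are 6 well-known long noncoding RNAs (lncRNAs), taken here by name from the 60483 genes listed in total RNA of HEK293 cells. All 6 were among the 14409 genes with enough counts to be tested. NORAD was 1.799-fold higher in cells producing the catalytic mutant of DIS3L2 than in cells producing the wild type, MALAT1, TUG1 and OIP5-AS1 were lower by a smaller factor, and NEAT1 and MIAT did not pass the test. Of the 6, MIAT is not abundant in these cells. It ranked 482 by mean level among the genes that RefSeq types as lncRNA, where NORAD ranked 3, MALAT1 4, OIP5-AS1 9 and NEAT1 17. RefSeq types TUG1 as protein-coding, so it lies outside that class.

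HEK293 is an established human embryonic kidney line. Both variants came from Flp-In T-REx derivatives in which doxycycline switches on a cassette holding a recoded, C-terminally FLAG-tagged DIS3L2, either wild type (WT) or with a catalytic mutation (mut). The cassette of both groups also carries hairpins, built as microRNAs, against the cell's own DIS3L2 message, and both were induced with 100 ng/ml doxycycline for 3 days, so no uninduced or untreated cells are in the comparison. For each variant there were 3 rRNA-depleted, strand-specific total RNA libraries and 3 libraries of short RNA. The sources used here do not say whether a variant is 1 clone or whether replicates were separate cultures, and each p-value therefore covers the variation among these libraries alone, part of which may be technical.

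DIS3L2 is a cytoplasmic exonuclease that degrades RNA from the 3′ end and prefers ends that carry added uridines. The 6 lncRNAs differ in where they act. MALAT1 stays in nuclear speckles and NEAT1 builds paraspeckles, and both lack an ordinary poly(A) tail at the end of their long form, which RNase P cuts and a triple helix protects. NORAD is mainly cytoplasmic and binds the PUMILIO proteins, which repress messages of cell division genes. TUG1 has been linked to Polycomb repression, OIP5-AS1 (cyrano) pairs with a microRNA and binds the RNA-stabilising protein ELAVL1, and MIAT (Gomafu) is a nuclear RNA whose repeats bind splicing factors.

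The promoters of the 4 genes that passed the test are shown because these genes did not move in 1 direction. Each runs from 250 bases before to 50 bases after a RefSeq start (GRCh38.p14, the hg38 build), in the direction of transcription. RefSeq promoters matched 5 of the 6 members, NEAT1 having no entry, and MALAT1 has a start on each of 2 entries. The OIP5-AS1 window belongs to a start inside its gene span, which begins upstream at 41282697. Capitals mark the motifs searched on both strands, which were the GC box GGGCGG, the E-box CACGTG, the CCAAT box CCAAT and the TATA box TATAAA. Adjacent matches join into 1 run of capitals.
NORAD (chr20:36050911-36051210, minus strand): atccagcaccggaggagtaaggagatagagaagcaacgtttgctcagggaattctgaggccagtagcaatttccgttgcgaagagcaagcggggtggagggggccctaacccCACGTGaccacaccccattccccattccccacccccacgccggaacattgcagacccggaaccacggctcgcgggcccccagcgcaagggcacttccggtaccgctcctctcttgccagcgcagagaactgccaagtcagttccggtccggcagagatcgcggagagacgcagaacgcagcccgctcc
MALAT1, upstream start (chr11:65497488-65497787, plus strand): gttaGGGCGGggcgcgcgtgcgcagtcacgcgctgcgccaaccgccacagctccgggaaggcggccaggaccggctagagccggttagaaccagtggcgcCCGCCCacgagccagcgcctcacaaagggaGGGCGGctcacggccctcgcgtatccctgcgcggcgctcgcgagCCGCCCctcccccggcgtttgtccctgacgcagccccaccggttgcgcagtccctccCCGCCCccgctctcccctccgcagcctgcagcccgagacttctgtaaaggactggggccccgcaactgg
MALAT1, downstream start (chr11:65498795-65499094, plus strand): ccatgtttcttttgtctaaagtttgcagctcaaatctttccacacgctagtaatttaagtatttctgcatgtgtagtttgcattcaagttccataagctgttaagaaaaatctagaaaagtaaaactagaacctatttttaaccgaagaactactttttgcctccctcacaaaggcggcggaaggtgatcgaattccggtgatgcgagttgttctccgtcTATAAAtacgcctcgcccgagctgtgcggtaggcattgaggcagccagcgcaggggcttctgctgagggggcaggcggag
TUG1 (chr22:30969015-30969314, plus strand): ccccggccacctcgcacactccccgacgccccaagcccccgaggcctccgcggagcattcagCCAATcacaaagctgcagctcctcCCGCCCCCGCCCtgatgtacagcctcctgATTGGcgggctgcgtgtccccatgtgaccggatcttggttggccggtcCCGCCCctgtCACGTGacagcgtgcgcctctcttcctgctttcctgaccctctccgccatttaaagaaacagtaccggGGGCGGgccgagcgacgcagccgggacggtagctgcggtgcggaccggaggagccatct
OIP5-AS1 (chr15:41283740-41284039, plus strand): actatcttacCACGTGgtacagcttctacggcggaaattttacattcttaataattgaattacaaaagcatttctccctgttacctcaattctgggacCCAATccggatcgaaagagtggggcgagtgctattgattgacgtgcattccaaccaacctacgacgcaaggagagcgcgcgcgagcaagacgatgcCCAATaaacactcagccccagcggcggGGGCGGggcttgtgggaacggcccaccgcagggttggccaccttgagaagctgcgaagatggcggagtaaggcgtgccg
The NORAD promoter holds 1 E-box and none of the other motifs. The TUG1 promoter holds 4 GC boxes, 2 CCAAT boxes and 1 E-box, and that of OIP5-AS1 1 GC box, 2 CCAAT boxes and 1 E-box. The upstream MALAT1 start has 5 GC boxes and a GC content of 73.7%, while the downstream one has 1 TATA box and a GC content of 46.0%. Of 35116 RefSeq promoters of the same length 45.0% hold the GC box, 7.26% the E-box, 34.6% the CCAAT box and 11.5% the TATA box, and the median GC content is 58.7%. The E-box thus occurs in the promoter of the member that was higher and in those of 2 members that were lower. These matches describe letters in the window and show no binding.

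Counts in genes were 8467957 to 9009114 in the mut and 8315986 to 12675042 in the WT libraries. Reads overlapping several genes, which the gene counts leave out, stood at 24.3 ± 1.05 per 100 gene counts in mut and 19.2 ± 1.02 in WT (SD, n = 3), without overlap between the groups, and reads outside genes made up 12.9% ± 0.70 and 17.9% ± 1.42. The part of these differences in the results was not tested. DIS3L2 itself was counted at 1137, 1046 and 1079 counts per 1000000 gene counts (CPM) in mut and 768.1, 819.4 and 760.2 in WT, a log2 difference of 0.48 (SE 0.05, edgeR adjusted p = 1.9e-07). This count may mix transgene and endogenous reads and does not check the mutation. Of 7 markers of HEK293 cells 6 were counted in every library, with summed levels of 1634 to 1724 CPM in mut and 1390 to 1502 in WT. Most of this sum was VIM, at 1411 ± 61.0 CPM in mut and 1207 ± 64.5 in WT. NEFL, INA and VIM were higher in mut (log2 fold change 0.51, 0.55 and 0.23) and LIN28B was lower (−0.22). GATA3 did not pass the test, and NEFM and PAX2 had too few counts to be tested. Blood and hepatocyte markers summed to at most 0.48 and 0.36 CPM, with CD3E, HBB, TTR and SERPINA1 at 0. Fibroblast markers summed to 4.43 to 6.66 CPM in mut and 2.60 to 3.55 in WT, with COL1A2, DCN and LUM at 0, and the part of these cells or genes in the results was not tested. In bulk RNA, fewer cells with a transcript and less of it per cell cannot be told apart.

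NORAD (ENSG00000260032.1, chromosome 20, 36045618 to 36050960) was the member that rose. It stood at 427.3, 499.4 and 482.3 CPM in the mut libraries and at 274.9, 251.0 and 258.5 CPM in the WT libraries. Each mut library lay far above each WT library, and the lowest mut value was well over the highest WT value. The log2 fold change was 0.85 (SE 0.06, 95% interval 0.72 to 0.97, edgeR adjusted p = 8.8e-11). Of the 123 lncRNA genes with a mean of at least 10 CPM, 3 had a larger rise.

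**Figure D1:**
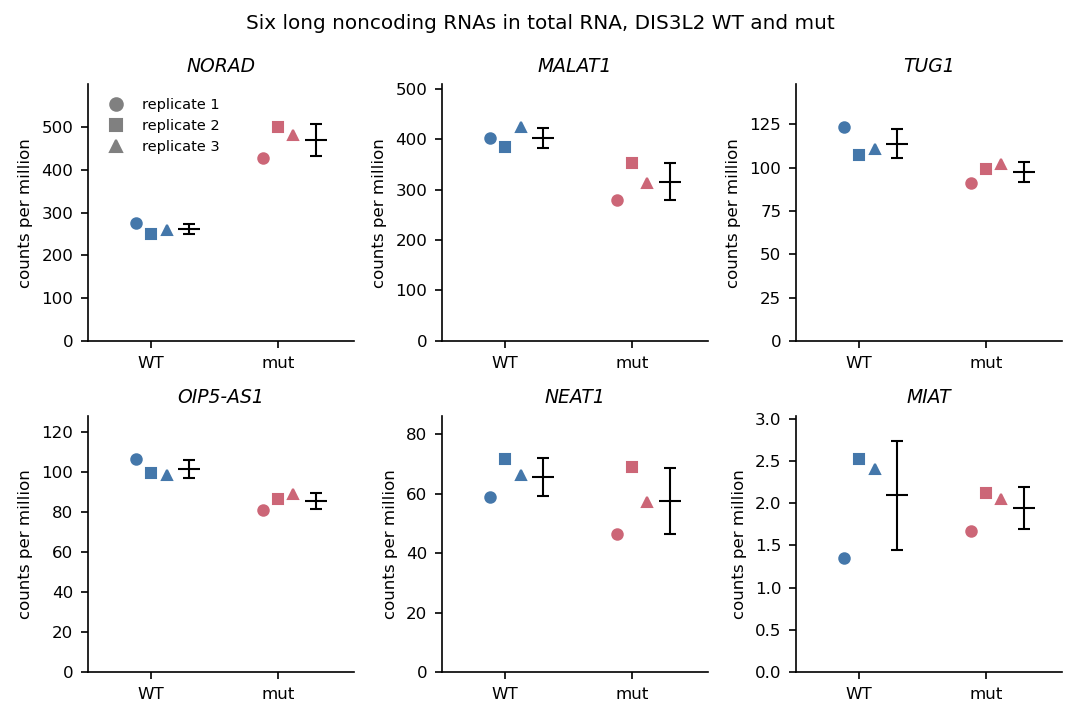
Level of each of the 6 lncRNAs in CPM (vertical axes, each from 0) in the 3 WT (blue) and 3 mut (red) total RNA libraries; symbols mark the replicate and black bars the mean ± SD. The NORAD points of mut lie between 427.3 and 499.4, above all WT points, while MALAT1, TUG1 and OIP5-AS1 lie lower in mut and NEAT1 and MIAT overlap.

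MALAT1 (ENSG00000251562.6, chromosome 11, 65497738 to 65506516), the speckle RNA, fell. Its levels were 279.6, 353.3 and 312.9 CPM in mut and 401.3, 383.9 and 423.5 CPM in WT, so that every mut library lay below every WT library. The log2 fold change was −0.35 (SE 0.07, 95% interval −0.49 to −0.21, edgeR adjusted p = 0.00031), and 19 of the 123 lncRNA genes fell further.

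NEAT1 (ENSG00000245532.5, chromosome 11, 65422798 to 65445540), the paraspeckle scaffold, lies 52198 bases from MALAT1. It stood at 46.5, 68.8 and 57.4 CPM in mut and 59.0, 71.7 and 66.3 CPM in WT. The groups overlap, with the second mut library inside the range of the WT libraries. The log2 fold change was −0.19 (SE 0.10, 95% interval −0.39 to 0.005, adjusted p = 0.14). Without mut replicate 2 it was −0.33 (edgeR adjusted p = 0.0086), and without mut replicate 1 it was −0.05 (adjusted p = 0.71).

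TUG1 (ENSG00000253352.7, chromosome 22, 30969265 to 30979395) was at 90.9, 99.4 and 101.9 CPM in mut and at 123.3, 107.4 and 110.5 CPM in WT. The groups did not overlap, but the highest mut and the lowest WT library were close. TUG1 fell by 0.22 on the log2 scale (SE 0.07, 95% interval −0.36 to −0.08, edgeR adjusted p = 0.018). The call was lost without mut replicate 1, WT replicate 1 or WT replicate 3 (adjusted p = 0.091, 0.15 and 0.070).

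OIP5-AS1 (ENSG00000247556.5, chromosome 15, 41282697 to 41313338) was at 81.3, 86.6 and 89.0 CPM in mut and at 106.6, 99.6 and 98.6 CPM in WT, again without overlap. It fell by 0.24 on the log2 scale (SE 0.07, 95% interval −0.38 to −0.11, edgeR adjusted p = 0.0067; without WT replicate 1 the adjusted p = 0.052). Its span overlaps that of OIP5, a centromere gene on the opposite strand. The OIP5 levels overlapped, with 24.6 ± 4.88 CPM in WT and 25.9 ± 1.33 in mut (log2 fold change 0.06, SE 0.11, adjusted p = 0.70). The strand setting of the counting is not given in the sources used here, and reads overlapping both genes are left out where strand was not used.

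MIAT (ENSG00000225783.5, chromosome 22, 26646429 to 26676478) was counted 15, 18 and 18 times in the mut libraries and 13, 32 and 20 times in the WT libraries. In CPM this is 1.95 ± 0.25 against 2.09 ± 0.64 (SD, n = 3), with overlapping groups. The 95% exact Poisson interval of the 13 counts reaches from 6.92 to 22.2 and that of the 32 counts from 21.9 to 45.2, so counting error alone is wide here. The log2 fold change was −0.12 (SE 0.28, 95% interval −0.71 to 0.46, adjusted p = 0.79), an interval that holds changes as large as that of MALAT1. MIAT also overlaps a second lncRNA gene, MIATNB, at 2.67 ± 0.36 CPM in mut libraries and 2.99 ± 0.61 in WT (adjusted p = 0.73).

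In all, 4 of the 6 passed the test, 1 higher and 3 lower. Across all genes tested 27.2% were called (edgeR, adjusted p under 0.05), 13.0% higher and 14.2% lower, and 40.5% had mut and WT libraries that did not overlap. Among the 743 lncRNA genes tested 19.2% were called, 9.69% higher and 9.56% lower. The median log2 fold change was −0.21 over the members, −0.01 over all genes tested and 0.02 over the lncRNA genes. With 6 genes chosen by name, these shares and medians are descriptions.

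Among the 3 mut libraries, replicate 1 had the lowest level of each of the 6 members, NORAD included. The ratio of 2 members within a library does not depend on how libraries are scaled. NORAD counts over MALAT1 counts came to 1.53, 1.41 and 1.54 in mut and 0.68, 0.65 and 0.61 in WT, so the order of these genes by count turned. The ratio of NORAD to TUG1 was 4.82 ± 0.18 in mut and 2.30 ± 0.06 in WT, that to OIP5-AS1 5.48 ± 0.26 and 2.57 ± 0.05, and that to NEAT1 8.28 ± 0.97 and 4.02 ± 0.59. None of these ratios overlapped between the groups (exact permutation p = 0.1 each, the smallest that 3 against 3 allows, two-sided, and 0.175 adjusted over 7 ratios). Ratios without NORAD lay closer between the groups. MALAT1 over NEAT1 was 5.53 ± 0.45 and 6.18 ± 0.75 (exact permutation p = 0.3), MALAT1 over TUG1 3.23 ± 0.28 and 3.55 ± 0.29 (p = 0.2), and TUG1 over OIP5-AS1 1.14 ± 0.02 and 1.12 ± 0.04 (p = 0.7), all with overlapping groups.

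Levels of different genes can be compared per length. Per kb of genomic span, NORAD stood at 48.9 ± 2.29 and MALAT1 at 45.9 ± 2.26 CPM in WT, which overlap. In mut NORAD stood at 87.9 ± 7.05 and MALAT1 at 35.9 ± 4.21 CPM per kb, without overlap. TUG1 followed at 11.2 ± 0.83 in WT and 9.61 ± 0.57 in mut. OIP5-AS1 was at 3.32 ± 0.14 and 2.79 ± 0.13, and NEAT1 at 2.89 ± 0.28 and 2.53 ± 0.49, a pair that overlapped in mut and not in WT. MIAT was lowest at 0.070 ± 0.021 and 0.065 ± 0.008 CPM per kb. The spans of TUG1, OIP5-AS1 and MIAT include introns, so their values per kb of mature RNA would be higher. NEAT1 was taken over its whole span of 22743 bases, and its long form was not told apart from any shorter one.

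As a share of all gene counts, the 5097 genes that RefSeq types as lncRNA made up 1.02%, 1.11% and 1.04% of the mut libraries and 1.40%, 1.34% and 1.39% of the WT libraries, a fall of 0.323 percentage points without overlap (exact permutation p = 0.1, the smallest possible; 0.175 adjusted over 7 shares). The summed share of the members did not separate the groups. Together the 6 made up 0.0927%, 0.111% and 0.105% of the mut libraries and 0.0966%, 0.0916% and 0.0960% of the WT libraries, which overlap (exact permutation p = 0.3, adjusted 0.42). NORAD added 0.0208 points, MALAT1 lost 0.00876, TUG1 0.00163, OIP5-AS1 0.0016 and NEAT1 0.00081. Without NORAD the others made up 0.0558% ± 0.0055 in mut and 0.0686% ± 0.0019 in WT, without overlap (exact permutation p = 0.1, adjusted 0.175). The 5 members within the class were 8.82% of it in mut and 6.05% in WT, and NORAD alone 4.45% and 1.90%. These percentages also depend on the class total, which was smaller in mut. MALAT1 and OIP5-AS1, which fell as shares of gene counts, were 2.99% and 0.812% of the class in mut and 2.93% and 0.738% in WT. The lncRNA XIST, treated next, was 29.6% of the class in mut and 46.9% in WT.

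The fall of the class was matched in size by a single gene that is not a member. XIST, the RNA that coats the silenced X chromosome, made up 0.312% ± 0.031 of gene counts in mut and 0.646% ± 0.040 in WT (SD, n = 3), a loss of 0.334 points (log2 fold change −1.05, SE 0.06, edgeR adjusted p = 4.2e-13). The class without XIST was at 0.742% ± 0.017 in mut and 0.731% ± 0.009 in WT, with overlapping groups (exact permutation p = 0.5). Without XIST and the members it was at 0.649% ± 0.014 and 0.648% ± 0.011 (exact permutation p = 0.9). Leaving out XIST was chosen after the data were seen.

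**Figure D2:**
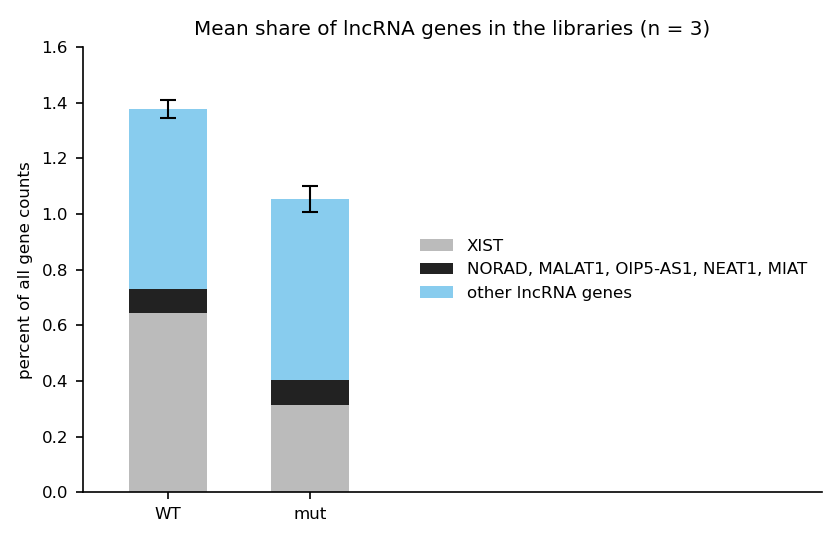
Mean share of all gene counts (vertical axis, percent) taken by lncRNA genes in WT and mut, stacked as XIST, the 5 members that RefSeq types as lncRNA, and the other lncRNA genes; error bars are the SD of the whole class over 3 libraries. The grey XIST block shrinks from 0.646% to 0.312%, while the black block of members and the blue block of other genes stand at 0.0834% and 0.648% in WT and at 0.0930% and 0.649% in mut.

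Other abundant lncRNA genes show how the members compare with the rest of the class. After XIST the highest were SNHG16 (log2 fold change −0.11, adjusted p = 0.12) and SNHG29 (0.23, adjusted p = 0.0032), both hosts of small nucleolar RNAs. GAS5, another such host, rose from 111 ± 2.90 to 148 ± 8.17 CPM (0.41, edgeR adjusted p = 1.9e-05), and LINC00665 fell by 0.24 (adjusted p = 0.013; not past the test without mut replicate 3 or WT replicate 3). FIRRE, FGD5-AS1, SNHG17, SNHG5 and TMEM147-AS1 did not pass, with values from −0.16 to 0.05. Ranked by change of share, NORAD gained most, followed by SNHG29 (0.00468 points), GAS5 (0.00367), LINC02226 (0.00358, log2 fold change 2.80) and the neuronal BCYRN1 (0.00225, 1.46). MALAT1 lost most after XIST, followed by SNHG16 (−0.00415 points), the imprinting RNA KCNQ1OT1 (−0.00291, log2 fold change −0.63) and TTN-AS1 (−0.00199, log2 fold change −0.57). Of the 123 lncRNA genes of at least 10 CPM, 20 passed the test as higher and 30 as lower, and the median was −0.04. Among all 743 lncRNA genes tested 9.69% were higher and 9.56% lower, and among all genes tested 13.0% and 14.2%. Of 24 tested genes of a list of well-studied lncRNAs, 2 were higher, GAS5 and SNHG12 (0.61), and 7 lower, among them KCNQ1OT1 and FTX (−0.61), with a median of −0.12.

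**Figure D3:**
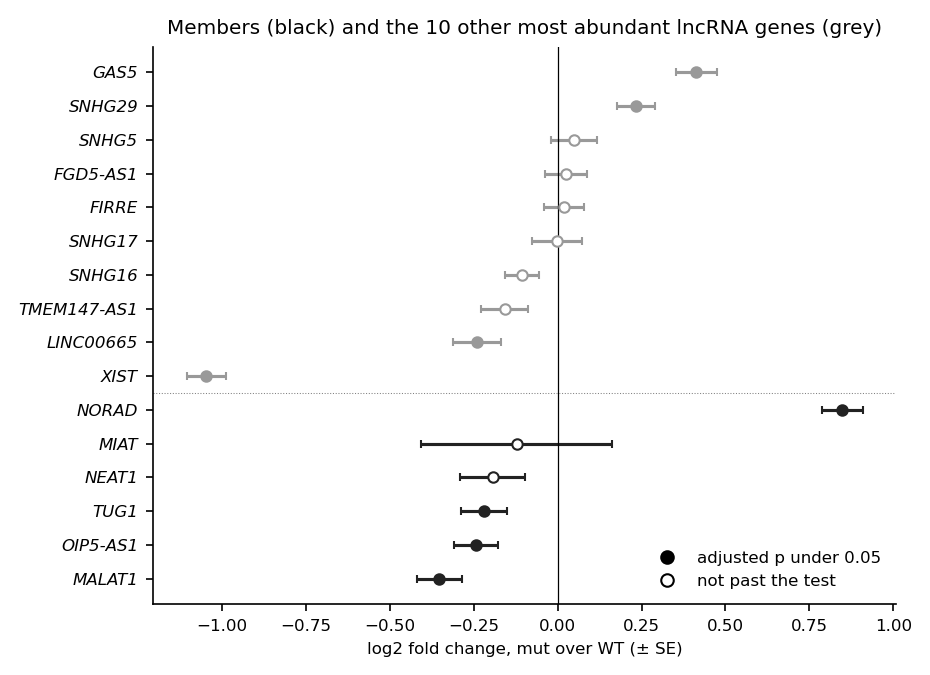
Log2 fold change of mut over WT (horizontal axis, ± SE) for the 6 members (black, lower rows) and the 10 other most abundant lncRNA genes (grey, upper rows); filled points passed the test at an adjusted p under 0.05. NORAD at 0.85 lies to the right of all others shown, XIST at −1.05 lies farthest to the left, and the others lie between −0.35 and 0.41.

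The genes next to the members are set beside all genes tested, of which 13.0% were higher and 14.2% lower. The 3 nearest tested genes on either side of NORAD had a median log2 fold change of 0.01, and 1 of the 6 was higher, SCAND1 (0.26, adjusted p = 0.034; not past the test without mut replicate 1, WT replicate 1 or WT replicate 3). Around MALAT1 the median was 0.04 and the smallest adjusted p (edgeR) was 0.075. MALAT1 was itself the 1 gene called among the neighbours of NEAT1. MORC2, which lies 491 bases from TUG1, was at −0.11 (adjusted p = 0.32), and the medians around TUG1 and OIP5-AS1 were −0.08 and −0.05, with smallest adjusted p of 0.074 and 0.064. NUSAP1, a spindle gene beside OIP5, was at −0.16 (adjusted p = 0.064). Of the 6 genes nearest MIAT in gene order 1 fell, PITPNB (−0.19, adjusted p = 0.048), and the median was −0.16. PITPNB lies 1175191 bases from MIAT and was not past the test without any 1 library other than WT replicate 2. In a window of 15 genes on either side, chosen after the data were seen, the medians were between −0.01 and 0.09. Of 30 genes each, 4 were higher and 2 lower around NORAD, 6 and 0 around MALAT1, and 5 and 1 around NEAT1. Around TUG1 the counts were 4 and 1, around OIP5-AS1 1 and 3, and around MIAT 4 and 3. These counts are descriptions. The medians of whole chromosomes were 0.00 for 11, 0.13 for 15, 0.02 for 20 and 0.08 for 22.

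**Figure D4:**
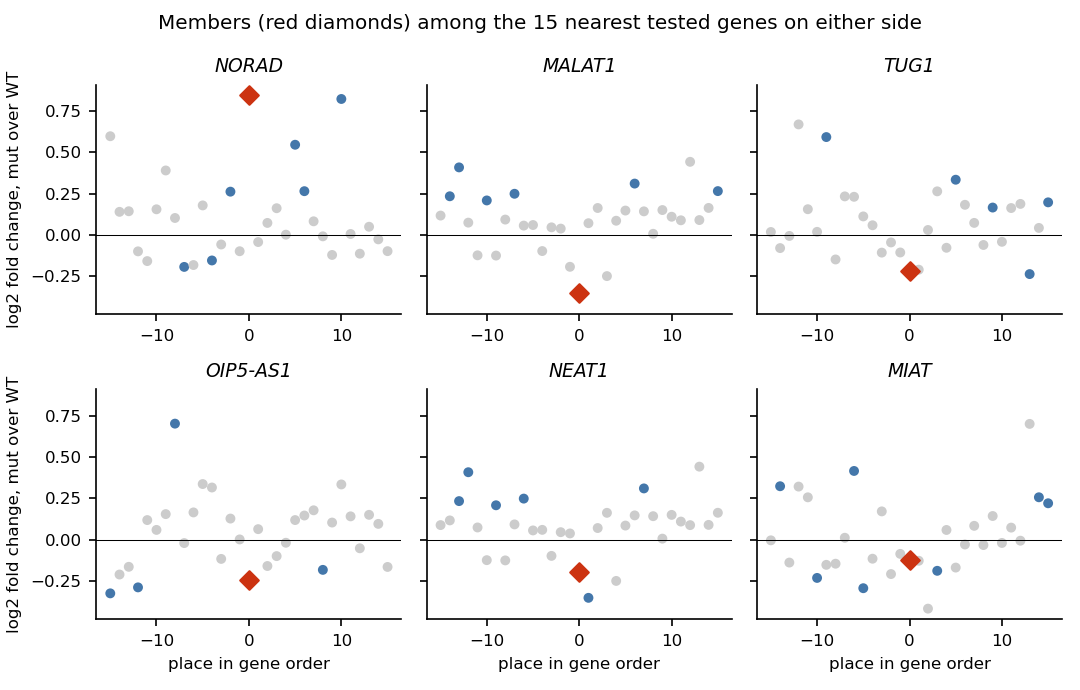
Log2 fold change of mut over WT (vertical axis) for each member (red diamond at place 0) and the 15 nearest tested genes on either side in gene order (horizontal axis); blue points passed the test and grey points did not. The NORAD diamond at 0.85 lies just above the highest of its 30 neighbours, MROH8 at 0.82 and 10 places away. The MALAT1 diamond at −0.35 lies below its 30 neighbours.

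Partners of the members were read from lists of genes by role. Of all genes tested, 27.2% passed in either direction, 13.0% higher and 14.2% lower, and the median was −0.01. Paraspeckle proteins, which assemble on NEAT1, had 1 of 13 higher and 3 lower, a share near that background, with a median of 0.02. SFPQ, a core paraspeckle protein, rose from 497 ± 21.5 to 552 ± 1.02 CPM (log2 fold change 0.15, adjusted p = 0.030; not past the test without mut replicate 2 or 3 or WT replicate 1 or 3). CPSF6 (−0.30), PSPC1 (−0.25) and HNRNPH3 (−0.23) fell, and 1 of the list was lower without mut replicate 1, WT replicate 1 or WT replicate 3. HNRNPH3 lost its call when any 1 library was left out. Nuclear speckle proteins had 0 of 20 higher and 2 lower, with a median of −0.07. These were the splicing factor SRSF11 (−0.26, adjusted p = 0.0028) and PNN (−0.29, adjusted p = 0.0054), while U2AF2 was at 0.17 and BCLAF1 at −0.16 (adjusted p = 0.050 and 0.060). With a trend of fold change on gene span removed, 5 were lower. Among 12 tested genes for the 3′ ends of MALAT1 and NEAT1, the RNase P subunit gene RPP25 rose from 1.13 ± 0.15 to 4.31 ± 0.38 CPM (1.90) and TRNT1, which adds the terminal CCA, fell (−0.34, adjusted p = 0.0039). POP1, another RNase P subunit, was at 0.09 and METTL16, which binds the MALAT1 triple helix, at −0.08 (adjusted p = 0.38 and 0.46), and the median was 0.03.

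The NORAD partner PUM2 did not pass the test, at −0.14 (adjusted p = 0.20). Of 8 partners tested RBMX rose by a small amount (0.14, adjusted p = 0.049; not past the test without mut replicate 2 or 3 or any WT library) and TOP1, a topoisomerase, fell (−0.31, adjusted p = 0.0018), with a median of 0.01. Cell division genes known as PUMILIO targets had 1 of 10 higher and 5 lower (median −0.12), beside 13.0% and 14.2% of all genes tested. The cohesin gene SMC3 fell from 141 ± 12.03 to 95.5 ± 9.16 CPM (−0.56, edgeR adjusted p = 5.1e-06), TTK and SMC1A fell by 0.27 and 0.22, and the cyclin gene CCNB1 rose from 233 ± 2.54 to 304 ± 9.64 CPM (0.39). Without WT replicate 3, 2 of the 10 were lower. Polycomb genes had 0 of 9 higher and 4 lower, among them RBBP7 (−0.37), EZH2 (−0.23) and SUZ12 (−0.21), with a median of −0.15, beside the same 14.2% lower of all genes tested. These lists are short and were chosen by name, so their counts are descriptions. Without mut replicate 1, without WT replicate 1 or with DESeq2, 1 of the Polycomb genes was lower. Without WT replicate 3 or with a replicate block, 2 were. Among 6 tested partners of OIP5-AS1 and MIAT, the splicing regulator QKI fell by 0.23 (adjusted p = 0.0058), and ELAVL1 (0.02) and AGO2 (−0.08) did not pass, with a median of 0.00.

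**Figure D5:**
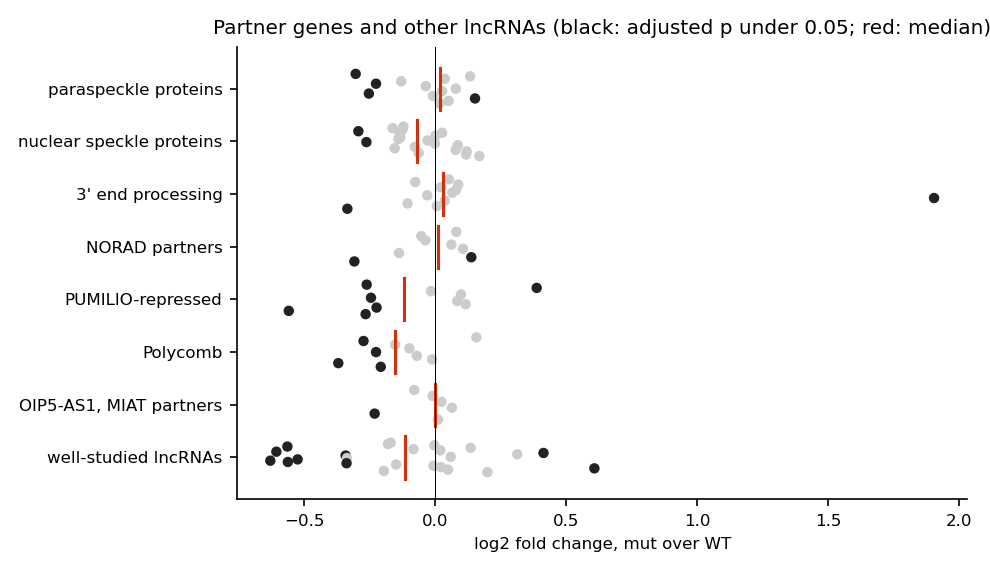
Log2 fold change of mut over WT (horizontal axis) of every tested gene in each list of partner genes and in the list of well-studied lncRNAs (rows); black points passed the test, grey points did not, and the red line is the median of the list. Medians lie between −0.15 and 0.03, and the point at the far right is RPP25 at 1.90.

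The genes whose levels tracked each member most closely over the 6 libraries were found by Pearson correlation among genes of at least 10 CPM. These values are a description, since the points share the split between mut and WT and 9689 genes were searched. NORAD was closest to FLVCR1 and NUP133, both on chromosome 1 (r = 0.9995 and 0.999, log2 fold changes 0.54 and 0.54). MALAT1 was closest to TRAF6 (0.998) and GDAP1 (0.997), TUG1 to PURB (0.9995) and ZNF765 (0.995), and OIP5-AS1 to AP3S1 (0.999) and UPRT (0.997). For the members that did not pass the test the highest values were lower, with GULP1 (0.987) and TSHZ1 (0.983) for NEAT1 and TSC1 (0.972) and ST3GAL6 (0.969) for MIAT.

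The short RNA libraries, made from inserts of 20 to 200 nt, could show fragments cut from these RNAs. They held 4042325 fragments in all, 2447336 in mut and 1594989 in WT. The deposited tables list 13 annotated features within 4 of the members, MALAT1, NEAT1, TUG1 and MIAT, and 0 loci reconstructed from the reads. Only 2 of the 13 held a fragment, 1 each. One lies within MALAT1 (chromosome 11, 65502914 to 65503008) and was seen in mut replicate 2. The other is at the position of mascRNA, the tRNA-like RNA that RNase P releases from the end of MALAT1 (chromosome 11, 65506117 to 65506173), and was seen in WT replicate 2. A feature with 0 fragments could have stood at up to 0.742 per 1000000 fragments over the 6 libraries together, the limit that 3 fragments set. That limit pools mut and WT, and with at most 1 fragment per feature the groups were not compared. It covers counting error only.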

How the data were processed

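Total RNA and size-selected small RNA of HEK293 cells were sequenced in 3 libraries per DIS3L2 variant and assay. The authors deposited raw read counts per Ensembl gene for total RNA. For small RNA the authors deposited fragment counts, FPM (a depth-scaled signal) and FPKM per feature. Per the submitters' processing notes the build was hg38 and the tools included STAR 2.4.0, HTSeq 0.6.1 and DESeq2 1.8.2, and the annotation version is not given in the sources used here. Between 57.8% and 63.2% of deposited reads lie in rows without a gene name, which were left out. Symbols matched 56321 of 60483 genes, and gene types and coordinates came from RefSeq GRCh38.p14.

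The members and lists were chosen with earlier results of these data known. Counts were tested with the quasi-likelihood test of edgeR 4.0.16 (R 4.3.3; TMM, filterByExpr) on 14409 genes, with Benjamini-Hochberg adjustment at 0.05; every adjusted p in the text is from this test unless another is named. Standard errors come from the fold change and its F statistic. CPM are per 1000000 gene counts, and groups called separate for a gene were compared on TMM-scaled CPM. Shares and ratios were compared with two-sided exact permutation tests over 20 assignments (Python 3.11.15). On simulated counts of 14198 genes the test recovered 72% of genes changed by 0.5 and 94.9% of those changed by 1 on the log2 scale. Of its calls there 5.17% were false. The simulation changed only 200 genes and used the fitted dispersions. It held no changes as small as those of TUG1, OIP5-AS1 or NEAT1, so recovery at their size was not tested. Replicate pairs differed by more than sampling noise (chi-square per degree of freedom 1.87 to 3.97). Alternatives were other scaling, DESeq2 1.42.0, no count filter, a span trend removed, library sizes without mitochondrial genes and 7SK, a replicate block and leaving out each library. Genes named besides the members are the most abundant lncRNA genes, those with the largest changes of share, up to 4 per list by adjusted p, the 3 nearest genes on either side and the 2 of closest pattern per member, and some of these are not reported here.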

Additional observations from a re-analysis of the deposited data

How the results depend on the processing

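NORAD and MALAT1 kept their direction and call in every alternative run, at 0.77 to 0.92 and −0.43 to −0.26 on the log2 scale. Leaving out 1 library at a time gave −0.33 to −0.053 for NEAT1, −0.27 to −0.16 for TUG1, −0.27 to −0.20 for OIP5-AS1 and −0.35 to 0.067 for MIAT, which turned sign without WT replicate 2. NEAT1 passed the test without mut replicate 2 (−0.33), TUG1 missed it without mut replicate 1 (−0.16), WT replicate 1 (−0.17) or WT replicate 3 (−0.21), and OIP5-AS1 missed it without WT replicate 1 (−0.22). The cause was not tested.

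Of all genes 2049 were lower, and 1274 to 2109 without 1 library (1274 without WT replicate 3) or 1357 with DESeq2, which also called 1315 higher instead of 1867. Of the lncRNA genes DESeq2 called 38 higher and 35 lower in place of 72 and 71, and 46 were lower without mut replicate 3 or WT replicate 3. The log2 ratio of the class share, −0.39, was −0.46 over all deposited reads, −0.42 to −0.36 without 1 library and 0.021 without XIST. The class without the members went from −0.43 to −0.50 over all reads and to 0.0030 without XIST. The members' ratio of 0.12 became −0.30 without NORAD. These follow from the reads or genes left in. The calls of LINC00665, SFPQ, PSPC1, HNRNPH3, RBMX, EZH2, SUZ12, SMC1A, SCAND1, PITPNB, PURB, AP3S1 and ZNF765 were lost in at least 1 alternative. SNHG16 gained a call with the span trend removed (edgeR adjusted p = 0.0084). TMEM147-AS1, U2AF2, BCLAF1 and NUSAP1 gained one in at least 1 alternative.

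Genes that never passed the test changed sign near 0: with the span trend removed FGD5-AS1 (−0.047), SNHG5 (−0.076) and GULP1 (0.0016); SNHG17 with DESeq2 size factors (0.0018), the DESeq2 test (0.0028) and library sizes without mitochondrial genes and 7SK (0.010); ST3GAL6 without the count filter (−0.0035). Without 1 library OIP5 ranged from −0.047 to 0.14, SNHG17 from −0.049 to 0.067, GULP1 from −0.17 to 0.0073, TSC1 from −0.12 to 0.028 and ST3GAL6 from −0.079 to 0.083.

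Same-numbered libraries correlated at −0.09, −0.07 and 0.03 in their deviations, and differently numbered ones at −0.11 to 0.17. These values show no sign of pairing by number, but cannot tell whether cultures were paired. With the replicate block the members were at 0.85 (NORAD), −0.36 (MALAT1), −0.22 (TUG1), −0.25 (OIP5-AS1), −0.20 (NEAT1) and −0.10 (MIAT), with the same 4 past the test, and 1675 and 1845 genes were higher and lower. Under the block 2 Polycomb genes were lower instead of 4, 2 paraspeckle genes instead of 3, and 0 paraspeckle genes and 0 NORAD partners higher instead of 1 each. Exact sign-flip permutations of the pairs gave p = 0.25 for the class share, the smallest possible, and 0.5 for the members. The alternatives for small RNA gave no value, since no feature within the members reached 10 fragments. Depth limits MIAT and the small RNA features. Reads shared by overlapping genes are not in the counts.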

Other observations

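Beside XIST, other noncoding genes of its neighbourhood on chromosome X were lower in mut. FTX fell from 29.2 ± 0.72 CPM in WT to 19.1 ± 2.17 in mut (−0.61 on the log2 scale, SE 0.10, edgeR adjusted p = 3.3e-05), and JPX from 37.4 ± 2.16 to 25.9 ± 3.68 CPM (−0.53, SE 0.10, adjusted p = 0.00019). JPX was singled out after its values were seen. FIRRE, a further lncRNA gene of chromosome X, was at 133 ± 1.84 CPM in mut libraries and 132 ± 4.40 in WT (0.02, adjusted p = 0.84). Whether the differences between these genes exceed their errors was not tested.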
